A study of Mus musculus with 4 samples.

Results

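Dido1 carried 8 of the 4206 m6A peaks that the study lists as differential between mouse embryonic stem cell libraries, and 5 of these 8 formed a chain at the 3′ side of the locus. The peaks were taken by position and strand: a peak belonged to Dido1 when any of its blocks lay on the minus strand of chr2:180392000-180446000 in mm9, a window of 54.0 kb. The locus was picked for description because its chain had been seen, so the number of peaks and their closeness describe the choice and were not tested.

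The cells were of the CCE line, grown without feeders in medium with leukemia inhibitory factor. They were infected with a control shRNA or with an shRNA against Zfp217, a zinc finger protein, and puromycin at 1 microgram per mL was added from day 4 after infection for 5 days. RNA was broken to about 100 nt, and m6A-bearing fragments were pulled down with an antibody to m6A. Each arm gave 1 input library (control shRNA input, Zfp217 shRNA input) and 1 immunoprecipitated library (control shRNA IP, Zfp217 shRNA IP), 4 libraries in all. The titles of both immunoprecipitated libraries also carry the name Zfp217, while their antibody field names m6A. The list holds positions only, with no column for a library, so it gives no fold, no direction and no replicate error, and no statement below says that m6A on Dido1 rose or fell. The extent of the knockdown was not analysed here, and the depth behind each peak is unknown.

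N6-methyladenosine is the most common internal modification of messenger RNA. It is written in the nucleus by a methyltransferase complex built around METTL3 and METTL14, mostly at an adenosine inside a short consensus of which GGACT, with U for T in RNA, is the best known form. Its sites gather in long internal exons, around stop codons and in the first part of 3′ untranslated regions, and reader proteins of the YTH family bind them and affect the stability and translation of the transcript. Dido1 (death inducer-obliterator) codes for a nuclear protein whose PHD finger binds histone H3 methylated at lysine 4. The gene makes short, middle and long protein forms that share this N-terminal part and differ in where the transcript ends, and the longest form has been linked to the differentiation of embryonic stem cells.

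The gene models used here, from GENCODE vM21, follow GRCm38 and not mm9, so their positions were not laid over the peaks, and the sequences shown here are those of the reference gene, not sequences read under the peaks. In GRCm38 the gene (ENSMUSG00000038914.15) lies on the minus strand at chr2:180657964-180709999 and spans 52.0 kb. It has 7 annotated transcripts, 6 of them protein-coding, with coding regions of 614, 1183 and 2256 codons in the complete ones. The 2256-codon transcript, Dido1-202, ends in an exon of 4620 nt, of which the first 3242 nt are coding and 1378 nt are the stop codon and 3′ untranslated region. This exon is shown first because it is the longest of the 26 annotated Dido1 exons, and the only one longer than the chain of peaks described below. Its coding part held the stretch richest in GGAC, the first letters of the consensus, at chr2:180659373-180659672 on the minus strand (GRCm38). In these 300 bases, written 5′ to 3′ with GGAC in capitals, GGAC occurs 12 times.
Dido1-202 last exon, bases 2912 to 3211: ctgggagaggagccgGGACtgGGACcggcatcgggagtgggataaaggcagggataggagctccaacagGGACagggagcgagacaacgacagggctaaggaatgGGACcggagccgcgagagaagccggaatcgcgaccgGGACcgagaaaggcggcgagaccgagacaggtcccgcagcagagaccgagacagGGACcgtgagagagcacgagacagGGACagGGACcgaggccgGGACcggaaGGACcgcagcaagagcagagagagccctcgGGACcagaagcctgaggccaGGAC

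The stretch was picked as the densest after the letters had been read. The densest 300 bases in the first 4620 nt of the last exon of 1445 other genes, 1 protein-coding transcript per gene, held a median of 3 GGAC and at most 9. The whole last exon of Dido1-202 held 35 matches to GGACN on the strand of the transcript, where N is any base and GGACT is included. The same length of the other last exons held a median of 12, and 5 of the 1445 (0.346%) held 35 or more. Of the 35, 6 ended in T, 18 in C, 10 in A and 1 in G. The coding part of the exon, 70.2% of its length, held 30 of them and the rest of the exon held 5. The other last exons were not matched to this one for coding share or base composition. GGACN was not counted on the opposite strand, so whether these counts go beyond base composition was not tested.

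The full GGACT was less out of the ordinary. The 6 matches in the exon compare with a median of 4 over the other last exons, of which 97.3% held at least 1 and 23.8% held 6 or more. On the opposite strand the exon held 2, against a median of 4. The 6 sites are given with 8 bases on each side, GGACT in capitals, and GRCm38 positions on the minus strand. The first 4 are coding and the last 2 lie in the 3′ untranslated region.
Position 103 of the exon (chr2:180662469-180662489): tgagaagcGGACTcgactcca
Position 1255 (chr2:180661317-180661337): tcctgctgGGACTgcagtagt
Position 1986 (chr2:180660586-180660606): acaacaggGGACTctcacctt
Position 2927 (chr2:180659645-180659665): aggagccgGGACTgggaccgg
Position 3423 (chr2:180659149-180659169): aatattctGGACTtcaggaat
Position 4572 (chr2:180658000-180658020): gaaacacaGGACTccataggt

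**Figure D1:**
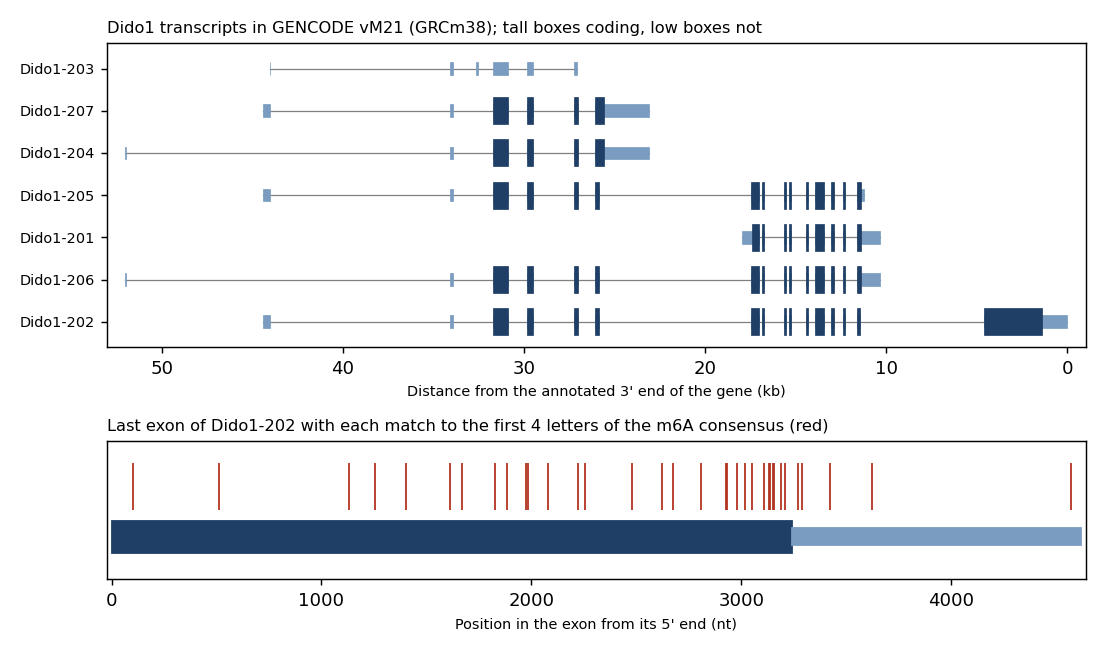
Upper panel: the 7 Dido1 transcripts of GENCODE vM21 in GRCm38, by distance in kb from the annotated 3′ end of the gene, with coding parts of exons as tall boxes. Lower panel: the 4620 nt last exon of Dido1-202, by position in nt, with a red line at each of the 35 places that hold the first 4 letters of the consensus; they crowd toward the end of the coding part, which stops at 3242 nt.

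The 8 peaks fell into 2 separate groups. Numbered from 5′ to 3′ along the minus strand, peaks 1 to 3 lay in the middle of the window, between 26.2 and 31.5 kb from its low edge, and peaks 4 to 8 lay between 1.18 and 4.33 kb from that edge. On the minus strand the low coordinate is the 3′ end, so the chain of 5 is the group nearest to the 3′ end of the locus. The groups were separated by 21.9 kb without a peak. A further 22.5 kb at the 5′ side of the window, above peak 1, held none. Together the peaks covered 2946 bp, or 5.46% of the window, and 78.5% of the covered bases belonged to the chain.

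**Figure D2:**
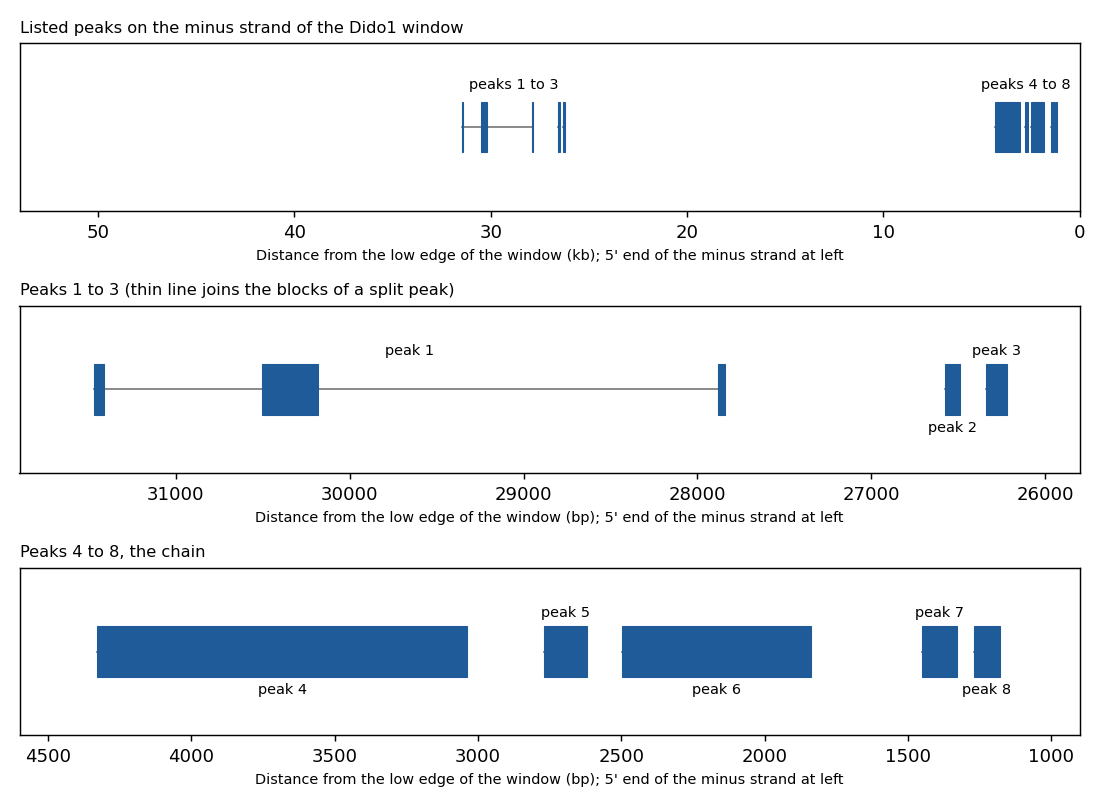
The 8 listed peaks of the Dido1 window by distance from its low edge, with the 5′ end of the minus strand at the left; the top panel (kb) shows the whole window and the lower panels (bp) enlarge peaks 1 to 3 and peaks 4 to 8. Filled boxes are the blocks of a peak. Peaks 4 to 8 sit within 4.33 kb of the low edge, and 21.9 kb without a peak lie between the groups.

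The edges of the window decided nothing about membership. The 3′-most peak began 1179 bp inside the low edge. The nearest minus-strand peaks outside lay 397.8 kb below the window and 199.8 kb above it. No plus-strand peak lay in the window, and the nearest one, of 714 nt in 2 blocks, started 5.58 kb above its high edge. The window edge is part of the rule and not the end of the gene, whose mm9 position was not used here, so distances are from the edge.

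The chain opened with its longest peak. Peak 4, at chr2:180395038-180396328 in mm9, was a single block of 1291 nt, and 53 of the 4206 listed peaks (1.26%) were longer. Peak 5, at chr2:180394618-180394768, followed after a gap of 269 bp and measured 151 nt. Peak 6, at chr2:180393839-180394498, began 119 bp further on and measured 660 nt, a length exceeded by 438 listed peaks (10.4%). The chain thus alternated a long, a short and a second long peak before it ended in a pair of short ones.

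After the widest gap of the chain, 389 bp, came peak 7 at chr2:180393329-180393449, with 121 nt. Peak 8, at chr2:180393179-180393269, stood 59 bp beyond it and measured 91 nt. These 5 peaks spanned 3.15 kb, none overlapped another, and each was uninterrupted. They covered 2314 bp, leaving 836 bp in the 4 gaps, and peaks 4 and 6 made up 84.3% of the summed length.

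The middle group was made of less sequence spread over more ground. Peak 1, at chr2:180419843-180423474, was the only split peak of the locus. From 5′ to 3′ its 3 blocks measured 59, 322 and 39 nt, with gaps of 913 and 2299 bp between them, so that 420 nt of peak spanned 3632 bp. In the list, 65 peaks (1.55%) had 3 blocks. Peak 2, at chr2:180418488-180418578, followed after 1264 bp with 91 nt, and peak 3, at chr2:180418218-180418338, after a further 149 bp with 121 nt. The 3 peaks covered 632 bp of a span of 5.26 kb.

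The split peak allowed a check of the gene label that needs no position. Its middle block is bounded by a gap on both sides, so its length can be set beside whole exons. In GENCODE vM21, 39 of 55450 genes had an inner exon of 322 nt and 24 had an intron of 2299 bp. In 1 gene, Dido1, an inner exon of 322 nt was followed on its 3′ side by an intron of 2299 bp, and 6 of the 7 Dido1 transcripts carry this pair. The gap on the 5′ side did not match: it measured 913 bp, against 1026 bp for the annotated intron, a difference of 113 bp. Even with the 59 nt block beyond it added, the gap is shorter than that intron. If the annotated length holds in mm9, that block touches no annotated Dido1 exon. Introns of 913 bp were not sought in other genes. One of the 2 gaps and the middle block thus carry Dido1 lengths, and the other gap does not.

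The exon of 322 nt is coding in each of the 5 coding transcripts that hold it, which include all of the 614-, 1183- and 2256-codon forms. It is shown because it is the exon whose length the list repeats. It holds 1 GGACT, as do 32.8% of the first 322 nt of 7249 inner exons of other genes at least as long (1 or more). The site lies at position 169 of the exon, again with GGACT in capitals and GRCm38 coordinates on the minus strand.
Exon of 322 nt (chr2:180687617-180687637): gatgagcaGGACTctgggtgc

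Exon lengths also bound where the longest peak could sit if it lay within 1 annotated exon. Peak 4, with 1291 uninterrupted nt, is longer than every inner exon of Dido1, the longest of which measures 832 nt. Of the 26 distinct annotated exons, 5 are at least 1291 nt long, and all 5 are last exons. They measure 4620 nt in Dido1-202, 2971 and 2956 nt in Dido1-204 and Dido1-207 of the 614-codon form, and 1299 and 1297 nt in Dido1-206 and the incomplete Dido1-201. One exon, the 4620 nt last exon of Dido1-202, is at least as long as the 3.15 kb chain. If the 322 nt block of peak 1 is the 322 nt exon, distances narrow these exons. In GRCm38 the 3′ edge of that exon lies 29512 bp from the gene's 3′ end. Dido1-206 ends at 10324 bp, and the Dido1-202 last exon begins at 4619 bp. In mm9 the block's 3′ edge is 180422181, and peak 4 begins at 180396328. Peak 4 thus lay farther from it than the ends of Dido1-201, Dido1-204, Dido1-206 and Dido1-207. These distances come from 2 builds. Whether peak 4 keeps to an exon was not read, since no annotation in mm9 was used.

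The transcript ends of the forms lie far apart in the annotation. Counted in GRCm38 from the 3′ end of the gene, where Dido1-202 ends, the transcripts of the 1183-codon form end 10.3 and 11.2 kb upstream, and those of the 614-codon form end 23.1 kb upstream. In the list, counted in mm9, the 3′ end of peak 3 lay 25039 bp upstream of the 3′ end of peak 8. These are distances from different starting points in different builds. They are set side by side, and no peak was assigned to a form from them.

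The lengths of the Dido1 peaks fell apart into 5 short ones of 91 to 151 nt and 3 longer ones of 420, 660 and 1291 nt. Their median of 136 nt compares with 210 nt over the whole list, whose quartiles were 120 and 420 nt, and 5 of the 8 lay under the median of the list. Both groups of the locus held a long peak at their 5′ end and a pair of short ones, 121 and 91 nt, at their 3′ end, in opposite order. Both lengths are common: 195 listed peaks measured 121 nt and 277 measured 91 nt. All 8 lengths were within 1 nt of a multiple of 30 nt, as were 3616 of the 4206 lengths in the list, so this regularity belongs to the list as a whole.

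**Figure D3:**
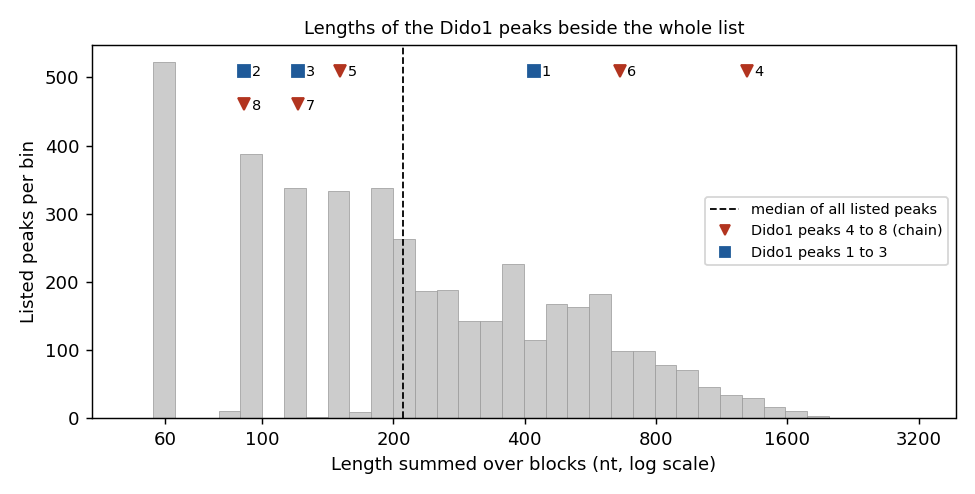
Lengths of all 4206 listed peaks (grey bars, number per bin, log scale in nt) with the 8 Dido1 peaks marked by number above them, triangles for the chain and squares for the middle group. Peaks 2, 3, 5, 7 and 8 lie left of the median of the list (dashed, 210 nt), and peaks 1, 6 and 4 lie right of it. The height of the marks carries no value.

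The spacing of the chain followed the same step. From peak 8 upward, the starts of neighbouring peaks were 150, 510, 779 and 420 bp apart, each within 1 bp of a multiple of 30. Among 757 pairs of uninterrupted neighbours in the list that did not overlap and lay within 1000 bp, 445 (58.8%) were spaced in this way. The 4 gaps of the chain, with a median of 194 bp, were ordinary for such pairs, whose median was 208 bp with quartiles of 89 and 358 bp. The gap of 59 bp between peaks 7 and 8 was the tightest of the chain, with 3.30% of listed gaps shorter. Gaps of equal length are not counted in that share. The same 59 bp was also the smallest gap in several of the other chains described below. Of the listed gaps, 76.6% were shorter than the 389 bp between peaks 6 and 7.

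Set beside the rest of the list, the locus was crowded. Counting the peaks of one strand in the 54.0 kb that begin at each listed peak, the median was 1, and 62.8% of these stretches held the starting peak alone. In 16 of 4206 stretches (0.380%) there were 8 or more, at 6 separate places of which Dido1 is one, and the highest number was 14. On chromosome 2, the minus strand held 192 peaks, of which the 8 are 4.17%. These shares are descriptions, since the locus was chosen for its peaks and the counts were not scaled to gene density or expression.

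When peaks of one strand within 1000 bp of each other were joined, the list gave 656 chains, of which 11 had 5 peaks or more and 9, that of Dido1 included, had exactly 5. The Dido1 chain held the longest peak of the 11, at 1291 nt, followed by 1171 nt in a chain of 7 peaks at chr6:4704361-4709856. It was the most uneven of them: its longest peak was 14.2 times its shortest and made up 55.8% of its summed length. The nearest in these respects were a chain of 8 peaks at chr9:111174612-111176475, with a ratio of 12.8, and a chain at chr16:98171440-98174131, with a share of 54.3%. In the chain of 8, 4 pairs of neighbours overlapped, and its peaks came from both of the 2 sorted runs of the list. In 2 of the 11 chains, Dido1 among them, a single longest peak came first on the listed strand, and in 1 it came last. In 2 more, the first peak shared the greatest length with another.

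The Dido1 chain was also densely filled. Its peaks covered 73.5% of its span, against a median of 40.2% over the 11 chains. The highest value was 80.0%, in the chain of 8 peaks on chromosome 9. Among the 9 chains of exactly 5 peaks it covered the most bases. Its span was the second longest after 3.33 kb for another minus-strand chain on chromosome 2, at chr2:130423089-130426415. That longer chain holds 1 split peak, whose inner gap counts in the span, and 2 pairs of overlapping neighbours. Of all 656 chains, 6 covered more bases than the 2314 bp of Dido1. With 11 chains chosen by size, and no value per library, none of these differences was tested.

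**Figure D4:**
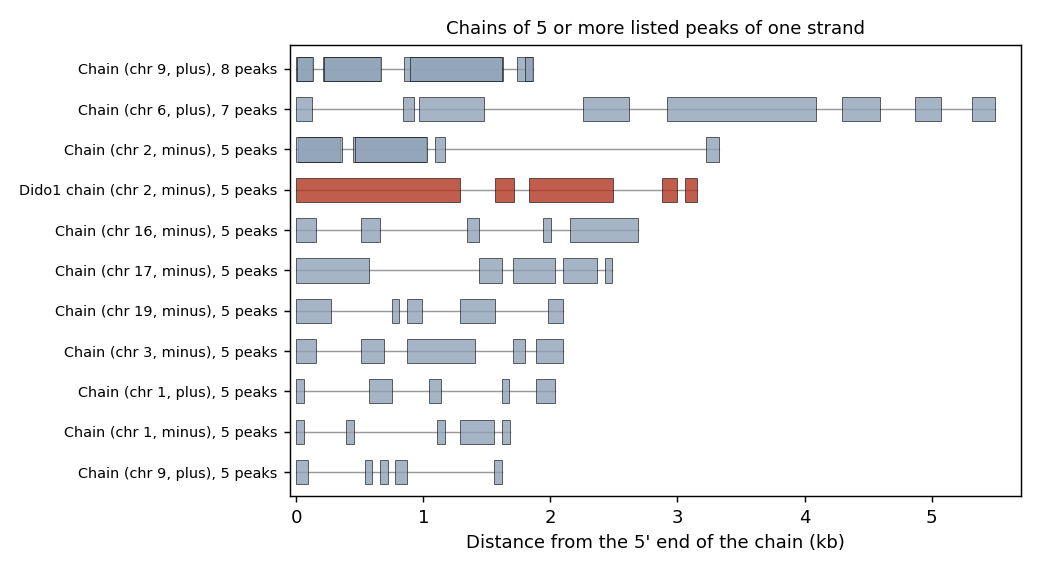
The 11 chains of 5 or more listed peaks, aligned at their 5′ ends and drawn by distance in kb, with boxes for blocks of peaks and darker shade where peaks overlap. The Dido1 chain (red) opens with a block of 1291 nt and fills 73.5% of its 3.15 kb.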

How the data were processed

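The data are 1 deposited list of 4206 peak positions for the whole series. The submitters' processing notes name build mm9 and the tools MACS 1.4, Bowtie2 and CASAVA 1.4. Not given in the sources used here are the role of each tool, the libraries compared, the threshold and where the strand of a peak came from, and the kit in the labels keeps no strand. The score the authors deposited is 900 for each peak and ranks nothing.

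Positions are counted from 1. Length is the sum of blocks, a gap is the distance between nearest block edges, and a chain joins peaks of one strand within 1000 bp. Python 3.11.15, numpy 2.4.6 and matplotlib 3.10.9 were used. On a simulated list of 2384 peaks, split ones included, 800 of 800 chains were recovered. Its chains were set farther apart than the 1000 bp link and held no overlapping peaks, so this checks the code only. GGACT was searched in GENCODE vM21 transcripts on both strands. By the naming rule, Dido1 was named with every peak in its window, and other chains of at least 5 peaks by position. The locus, the lists and these measures were chosen with earlier results of these data known, and the length check of exons and the GGAC stretch after the values were seen. No test was run, since there is 1 library per group and no value per library. Genes other than Dido1 were not sought, for want of an annotation in mm9.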

Additional observations from a re-analysis of the deposited data

How the results depend on the processing

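The count of 8 peaks in the window did not change when peaks had to lie wholly inside, when both strands were taken or when the first of the 2 sorted runs of the list was used alone, and it was 7 with peaks within 100 bp merged. The chain kept 5 peaks with links of 500 and 3000 bp, with links by midpoints and in the first run alone. A link of 300 bp left 3, because it is shorter than the gap of 389 bp between peaks 6 and 7. The median length of 136 nt was the same with the gaps of peak 1 included. Peak 1, the only split peak, was already longer than that median, so this setting could not move it. The median spacing of the chain was 652 bp between midpoints against 194 bp between edges, since midpoints take in the peaks themselves. No paired analysis was possible because no group has a second library and peaks carry no library name. The limits that sequencing depth sets could not be given, as the list holds no counts.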

Other observations

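The last exon of Dido1-206, a transcript of the 1183-codon form, held 4 GGACT in 1299 nt, all in its 3′ untranslated region. Of the first 1299 nt of 10948 last exons of other genes, 71.8% held at least 1 and 5.38% held 4 or more. The last exon of Dido1-204, of the 614-codon form, held 1 GGACT in 2971 nt, where the median of 4062 other last exons was 2. These are counts in the reference, and no listed peak was placed on either exon.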
